A study of Arabidopsis thaliana with 6 samples.

Results

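AT5G08520, AT5G08510 and AT5G08500 are neighbouring protein-coding genes on chromosome 5 of Arabidopsis thaliana. Each is read by 1 probe set on the Affymetrix array used here, that is, by a group of short probes whose brightness is summarised as 1 signal. The 3 members were taken as the probe sets paired with exactly 1 of these loci in the gene table, and they are 3 of 22746 probe sets tested. AT5G08520 is read by 250524_at, AT5G08510 by 250523_at and AT5G08500 by 250522_at. The genes were chosen by their signal difference between sto2 and wild type, which had already been seen for AT5G08520 and AT5G08500, together with their position, so that difference is given for all 3 as a description, with no test.

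The study compared expanding rosette leaves, from leaf 3 to leaf 6, of soil-grown plants that were 3 weeks old and had received no treatment. All were grown with 16 h of light at 22 °C and 8 h of dark at 18 °C. Col-0 plants served as wild type and gave 3 samples. The other 3 came from the sto2 mutant, which the design text calls a null. The design text speaks of biological replicates, but how many plants went into a sample, how the allele was made and whether more than 1 allele was used are not stated in the labels. The stated aim was to find transcripts that could lie downstream of the STO2 protein. No label ties the name STO2 to a locus, so none of these 3 genes could be checked as the mutated gene by name.

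MYB proteins are transcription factors that bind DNA through a repeated helical domain. The MYB-related branch to which AT5G08520 belongs includes regulators of sugar responses, leaf growth and salt responses, and AT5G08520 has been described in published work as MYBS2 and as SRM1, for salt-related MYB. AT5G08510 encodes a pentatricopeptide repeat protein, a member of a large plant family whose known members mostly bind RNA in mitochondria and chloroplasts. AT5G08500 encodes a membrane protein of the CLPTM1 family, named after a human gene linked to cleft lip and palate. In the RefSeq gene order AT5G08505 stands between AT5G08500 and AT5G08510, and AT5G08510 is next to AT5G08520. The gene models of AT5G08510 and AT5G08520 overlap at their adjoining ends in that annotation. The labels and tables used here do not say which part of either gene the probes match, so signal from the shared stretch cannot be assigned to 1 of them.

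The arrays were alike in overall signal. Their medians ran from 37 to 38.55 signal units, and they carried leaf transcripts: the photosynthesis genes RCA, PRK, LHCB4.1, LHCB4.2 and PSAN all read 2842.6 or more on every array. CLV3 and UFO of the shoot apex read 5.8 or less on every array, and the root markers PYK10 and EXPA7 no more than 17.9. With no detection calls in the values, a reading was set against 27 bacterial controls, whose median ran from 1.7 to 3.9 between arrays. The highest of these controls ranged from 9.5 to 18.4 between arrays, and 23% to 34% of all probe sets read at or below it. This yardstick was chosen after the values had been seen. In 1 measure of RNA quality the genotypes stood apart: the log2 ratio of 3' to 5' signal of the older actin controls ran from 2.52 to 2.64 in wild type and from 1.82 to 2.32 in sto2. The mean ratio differed by -0.52 for these, against -0.08 for the newer actin controls and 0.05 for the older GAPDH controls. The part of this in the results below was not tested.

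AT5G08520, the MYB gene, was bright in wild type and not above the controls in sto2. Its signal was 250.7, 234.1 and 268.4 in wild type replicates 1, 2 and 3, and 0.5, 0.6 and 0.7 in sto2 replicates 1, 2 and 3. All wild-type arrays were bright and close together, all sto2 arrays were at the bottom of the scale, and the groups did not overlap. Every wild-type reading exceeded the highest bacterial control on its array. On the sto2 arrays the gene lay among the lowest of these controls, with 24, 23 and 22 of the 27 reading higher than it in replicates 1, 2 and 3.

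The group means of AT5G08520 were 251 ± 17.2 in wild type and 0.6 ± 0.1 in sto2 (mean ± SD, n = 3). A reading under the controls has no level of its own, so the difference was bounded by setting wild type against a floor, the highest bacterial control of each sto2 array. By that bound AT5G08520 was at least 19.97-fold lower in sto2. On the log2(signal + 16) scale, where the 16 added to every signal damps differences between dim readings, the difference was -4.01 ± 0.08 (SE). Because the sto2 readings are under the controls, this value is set largely by the added 16, and it was -7.30 with 1 added and -2.28 with 64. The spread was narrow in wild type, with an SD equal to 6.83% of the mean.

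**Figure D1:**
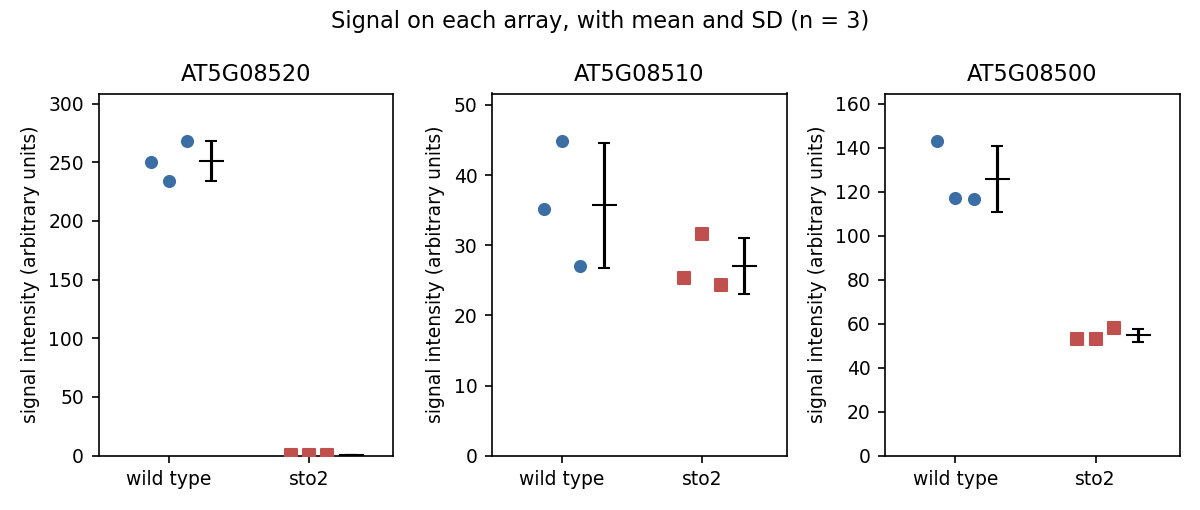
Signal intensity (arbitrary units, linear axis from 0) of AT5G08520, AT5G08510 and AT5G08500, with a point for each of the 3 wild-type arrays (blue circles) and 3 sto2 arrays (red squares) in replicate order, and the mean ± SD in black beside them. AT5G08520 reads 234.1 or more in wild type and 0.7 or less in sto2, AT5G08500 reads 116.6 or more and 58 or less, and the AT5G08510 groups overlap.

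AT5G08510, the pentatricopeptide repeat gene next to it, was read at 24.3 to 44.9 over both genotypes, against array medians of 37 to 38.55. Wild type replicates 1, 2 and 3 gave 35.1, 44.9 and 27.1, and sto2 replicates 1, 2 and 3 gave 25.3, 31.6 and 24.3. The groups overlapped: sto2 replicate 2 read higher than wild type replicate 3, while the other two sto2 arrays lay below all wild-type arrays. All 6 readings stood above the highest bacterial control of their array. The means were 35.7 ± 8.92 and 27.1 ± 3.96 (SD, n = 3), which puts sto2 at 75.8% of wild type. The difference on the log2(signal + 16) scale was -0.25 ± 0.14 (SE), a size within the spread of the wild-type arrays, whose highest and lowest readings differ more than the group means do.

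AT5G08500, the CLPTM1-family gene on the far side of AT5G08510, stood between these cases. It read 143.1, 117.3 and 116.6 in wild type replicates 1, 2 and 3, against 53, 53 and 58 in sto2 replicates 1, 2 and 3. Wild type replicate 1 was the highest array, the sto2 arrays lay close together, and the groups did not overlap. The lowest wild-type reading was 2.01 times the highest sto2 reading. The sto2 readings stayed above the bacterial controls on all 3 arrays, so this transcript, unlike that of AT5G08520, was still measured in the mutant. Means were 126 ± 15.1 and 54.7 ± 2.89 (SD, n = 3), a 2.299-fold lower signal in sto2. The log2(signal + 16) difference was -0.999 ± 0.10 (SE).

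For 2 of the 3 members the groups did not overlap with sto2 lower, and 10.2% of all probe sets had that pattern. Because the genes were picked with this contrast known, nothing is read from that count. By limma, a linear model fitted to each probe set with its variance shrunk towards that of the others, 29 of 22746 probe sets passed a Benjamini-Hochberg adjusted p of 0.05, which is 0.127% of those tested; 13 were higher and 16 lower in sto2, the latter being 0.0703%. That count was unstable: it was 5 to 22 when 1 array was left out and 2 to 227 over all alternatives. The median difference over all probe sets was -0.01, and 5% of them lay below -0.34.

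**Figure D2:**
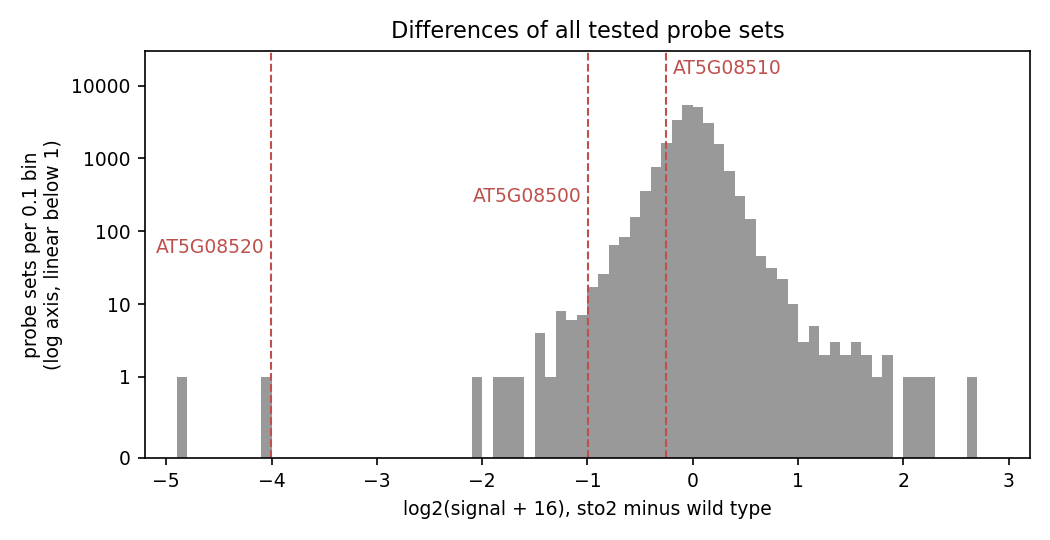
Number of probe sets (log axis, linear below 1) in each 0.1-wide bin of the sto2 minus wild type difference of log2(signal + 16), for all 22746 probe sets, with dashed lines at AT5G08520 (-4.01), AT5G08500 (-0.999) and AT5G08510 (-0.25). AT5G08510 lies within the bulk, and the place of AT5G08520 depends on the added 16.

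The arrays that were high or low within a genotype were not the same for the members. Expressed as log2(signal + 16) minus the mean of its own group, wild type replicate 1 was at 0.17 for AT5G08500 but at 0.00 for AT5G08520 and AT5G08510. Wild type replicate 2 was at 0.25 for AT5G08510, at -0.09 for AT5G08520 and at -0.08 for AT5G08500. In sto2, replicate 2 was highest for AT5G08510, at 0.15, while AT5G08500 was highest in replicate 3, at 0.07. For AT5G08520 the sto2 deviations stayed between -0.01 and 0.01, because its readings there were near 0 and the added 16 fills the scale.

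The other measured genes around the locus were tested in the same fit. Among the 5 protein-coding genes on each side of AT5G08520, 8 are not members. Of these, 4 were measured, meaning that the gene table paired a probe set with them alone. CI51, which encodes a subunit of mitochondrial complex I and adjoins AT5G08520 on its other side, was not analysed here, and neither were AT5G08505, SLG1 and ILP1. AT5G08480, on the side of AT5G08500, read 4.93 ± 0.93 in wild type and 1.9 ± 1.08 in sto2 (SD, n = 3), under the highest bacterial control on all 6 arrays. The log2 difference came to -0.23 ± 0.08 (SE; limma adjusted p = 0.288).

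On the other side of AT5G08520, AT5G08535 read 103 ± 6.09 in wild type and 109 ± 6.06 in sto2 (SD, n = 3). AT5G08540 read 328 ± 29.5 and 303 ± 10.7. AT5G08560 read 129 ± 1.88 and 113 ± 6.54, and its groups did not overlap. These 3 genes gave log2 differences of 0.07, -0.11 and -0.17, with limma adjusted p-values of 0.756, 0.645 and 0.361. All 3 read above the bacterial controls on every array.

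Widening the view to the 20 protein-coding genes on each side gave 38 genes other than the members, of which 18 were measured. None passed limma at an adjusted p of 0.05, and with 0.127% of all probe sets passing, a count of 0 among so few genes says nothing particular about them. An unadjusted p under 0.05 was reached by 5, which is 27.8%, against 14.1% of all probe sets, 3 with higher and 2 with lower means in sto2. Differences ran from -0.33 to 0.49 with a median of 0.04. In 9 of the 18 the groups did not overlap, which is 50%, against 19.2% of all probe sets; 5 of these genes had higher and 4 had lower readings in sto2. The signs were mixed. AT5G08480 and AT5G08600 were the 2 lower genes with an unadjusted limma p under 0.05, and were among the 4 lower genes without overlap. Both read under the highest bacterial control on every array.

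The named extremes of that window were picked after their values were seen. AT5G08400 had the largest positive difference, from 101 ± 13.2 in wild type to 148 ± 7.01 in sto2 (SD, n = 3; log2 difference 0.49 ± 0.10 SE, limma adjusted p = 0.120). AT5G08600 had the most negative one, -0.33 ± 0.09 (limma adjusted p = 0.194), but it read 7.2 or less on every array, under the bacterial controls. SPT4-1 (AT5G08565), a transcription elongation factor gene, is not an extreme and is named as a further example. Its difference was -0.21 ± 0.09 (limma adjusted p = 0.364).

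With 50 genes on each side, 47 of 98 genes were measured and again 0 passed limma, beside the 0.127% of all probe sets. An unadjusted p under 0.05 was reached by 11, or 23.4% against 14.1% of all probe sets, 7 with higher and 4 with lower means in sto2. The groups did not overlap in 15 of the 47, or 31.9% against 19.2%, 9 with higher and 6 with lower readings in sto2. The lower genes of both counts again include AT5G08480 and AT5G08600, which read under the bacterial controls. BIM1, a helix-loop-helix partner of brassinosteroid signalling that stands 44 genes away from AT5G08520, had the largest difference of the 47. Its wild-type arrays read 283.7, 142.4 and 166.7 against 90.4, 99.8 and 93.7 in sto2, a log2 difference of -0.89 ± 0.23 (SE; limma adjusted p = 0.174). Wild type replicate 1 was far above the other two. The serine carboxypeptidase-like gene scpl35 had the largest difference upward, 0.62 ± 0.11 (SE; limma adjusted p = 0.0890). BIM1 and scpl35 were also picked after their values were seen.

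**Figure D3:**
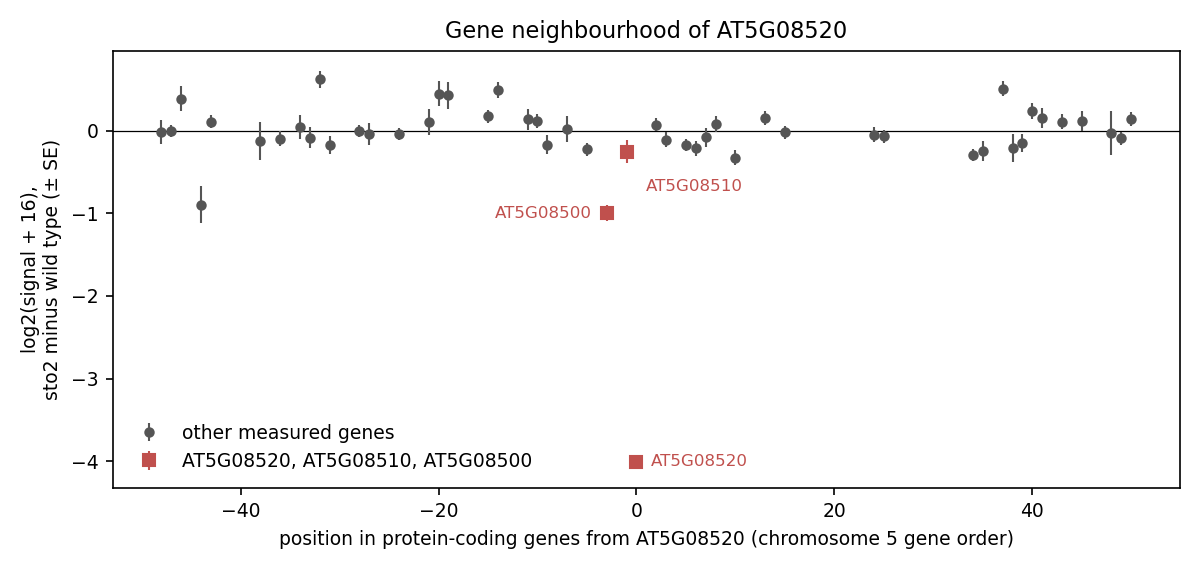
Difference of log2(signal + 16), sto2 minus wild type, with its SE from limma, against position counted in protein-coding genes from AT5G08520 in the RefSeq gene order of chromosome 5, for the 3 members (red squares) and the 47 other measured genes within 50 on each side (grey circles). The other genes lie between -0.89 and 0.62, with AT5G08520 at -4.01 and AT5G08500 at -0.999, members that were chosen by this difference.

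Relatives of AT5G08520 in the MYB-related family had small differences of both signs. A list of 16 such genes was drawn up from general knowledge of the family, and 14 were measured. None passed limma at an adjusted p of 0.05, a count that is near the 0.127% of all probe sets and so is no result about the family, and 0 had an unadjusted p under 0.05, against 14.1% of all probe sets. Signs were split evenly, 7 positive and 7 negative, with a median difference of -0.01 and a range from -0.24 to 0.20. In 3 of the 14 the groups did not overlap, which is 21.4% and close to the 19.2% over all probe sets.

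Of these relatives, MYBS1 (AT1G49010), a regulator of sugar responses, had the smallest p. It read 116.2, 128.6 and 142.4 in wild type and 144.7, 155.4 and 150.6 in sto2, so that all sto2 arrays lay just above the wild-type arrays. The log2 difference was 0.20 ± 0.09 (SE; limma adjusted p = 0.376). MYBS3 (AT5G47390), also known as KUA1 or MYBH and linked to leaf cell expansion, read 213.2, 220.4 and 201.8 in wild type and 175.7, 198.9 and 186.4 in sto2. Here the sto2 arrays lay just below, with a difference of -0.17 ± 0.08 (SE; limma adjusted p = 0.400).

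AT5G01200, a close relative of the DIVARICATA genes, read 31.5 ± 5.19 and 24.3 ± 4.99 in wild type and sto2 (SD, n = 3), with overlapping groups (limma adjusted p = 0.440). DIV2 (AT5G04760) read 73.9 ± 1.08 and 69.2 ± 1.99 (limma adjusted p = 0.666). DIV1 (AT5G58900) read 71.7 ± 7.92 and 69.7 ± 4.03. AT5G23650 read under the bacterial controls on all 6 arrays, and 10 of the 14 read above them on all 6.

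**Figure D4:**
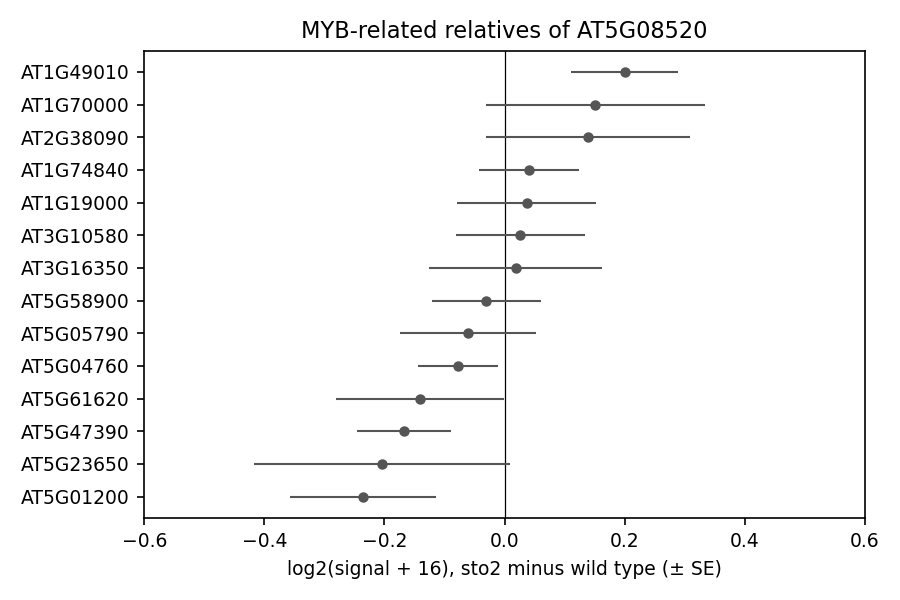
Difference of log2(signal + 16), sto2 minus wild type, with its SE from limma, for the 14 measured MYB-related relatives of AT5G08520. They lie between -0.24 and 0.20 around 0, with 7 on each side.

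Published work links SRM1 to abscisic acid, the hormone of drought and salt stress, through its synthesis gene NCED3 and the NAC factors RD26 and ANAC019. A list of 30 genes of abscisic acid synthesis, signalling and response was drawn up for this reason. No probe set listed in the gene table, which leaves 8730 unlisted, could be paired with any of the 30, and these genes were not analysed here.

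The transcripts whose pattern was most like that of AT5G08520 were sought by Pearson correlation of log2(signal + 16) over the 6 arrays. Of the probe sets paired with 1 gene, 6713 had a mean signal of at least 32 in at least 1 genotype and were compared. AT5G08520 hardly varied within a genotype, so this correlation chiefly ranks how cleanly a transcript separates the same 3 arrays from the other 3, and it is given as a description. It exceeded 0.95 for 87 probe sets and lay below -0.95 for 80. The 5 highest were AT3G56720 (0.997), AT3G23880 (0.994), AT3G01690 (0.991), AT2G04520 (0.991) and AT5G57700 (0.989).

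AT3G56720 read 149.5, 144.1 and 148.2 in wild type and 116.9, 116.2 and 116.8 in sto2, with little spread in either group. AT3G23880 read 37.3, 35.9 and 40.3 against 19.8, 21 and 20.2. Over the 5 genes the log2 differences were -0.30, -0.57, -0.58, -0.55 and -0.32 in the order named. AT5G08500 ranked 15 by this measure, with a correlation of 0.983, and AT5G08510 had one of 0.596.

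In the opposite sense the lowest correlations belonged to AT5G56380 (-0.997), ATMDAR2 (-0.996), CYP71B22 (-0.994), AT3G52390 (-0.993) and AT3G04000 (-0.992). AT5G56380 read 69.2, 70.7 and 69.1 in wild type and 92.6, 89.9 and 89.8 in sto2. ATMDAR2, a monodehydroascorbate reductase gene that recycles vitamin C, read 128.2, 128.6 and 123.5 against 184, 189 and 194.2. The cytochrome P450 gene CYP71B22 differed most of these, by 2.09 on the log2 scale.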

How the data were processed

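Leaf RNA of 3 wild-type and 3 sto2 samples was measured on single-colour Affymetrix arrays, labelled, hybridised and scanned by a service provider per the labels' protocols. The deposited values are linear signal intensity values, 1 per probe set. The labels do not state how probes were summarised. By the values themselves, each array has the same 2% trimmed mean, 100.009, while quartiles differ. Array medians differed by 0.0416 on the log2(signal + 16) scale, so no further normalization was applied. Groups and replicate numbers came from the sample titles.

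After leaving out 64 controls, log2(signal + 16) was fitted with limma 3.58.1 in R 4.3.3 (lmFit, eBayes, 2-sided), adjusted by Benjamini-Hochberg over 22746 probe sets. The procedure was tested on simulated data. For a gene with several probe sets the brightest was used. Of the probe sets, 13513 paired with 1 gene, 503 with several and 8730 were unlisted. RefSeq (TAIR10.1) gave names and gene order; the labels name no build for the array design, and coordinates are left out. No sequences were used.

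The members and lists were chosen with earlier results of these data known. Named genes were the members, measured neighbours within 5 genes, passing genes, the 4 relatives with the smallest p and the 5 highest and 5 lowest correlations; others are marked or illustrate a list. The relatives were to be found by a protein motif, and a list of loci stood in because no protein table was used. A planned count of pentatricopeptide repeat genes was not made, as the gene table used holds no descriptions. The samples were not treated as paired in the main fit. Deviations of same-numbered arrays correlated at -0.235, -0.136 and 0.0734, which does not settle whether the replicate numbers pair the samples. Alternatives were quantile normalization, median centring, pseudocounts of 1 and 64, filters that dropped the dimmest 30% or 50%, a robust prior with an intensity trend, the replicate number as a block, each array left out in turn and a window of 50 genes.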

Additional observations from a re-analysis of the deposited data

How the results depend on the processing

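All 3 members kept a negative difference under every alternative run for them. AT5G08520 was at -7.30 with a pseudocount of 1 and -2.28 with 64, and AT5G08500 at -1.18 and -0.67, since the pseudocount sets how much dim readings count. Leaving out each array in turn gave -4.05 to -3.96 for AT5G08520, -0.38 to -0.13 for AT5G08510 and -1.04 to -0.91 for AT5G08500. Counts of passing neighbours and of passing MYB-related relatives were 0 in all alternatives. Array-wide, 2 of 22746 to 227 of 11371 probe sets passed across the settings. With so few genes in each list, a count of 0 says nothing particular about them. No gene of the abscisic acid list could be paired with a probe set in the gene table, so that list gave no count. Over the whole array 29 probe sets passed, and this number moved with the setting: 17 with a pseudocount of 1 (11 higher, 6 lower), 83 with 64 (45 higher, 38 lower), 147 and 227 without the dimmest 30% and 50%, where fewer were tested, and 72 with an intensity trend and robust prior. Leaving out 1 array gave 5 to 22. Wild type replicates 2 and 3 left 7 and 11 when removed, and sto2 replicates 1, 2 and 3 left 8, 7 and 5. With the replicate number as a block 2 passed. The deviations of sto2 replicates 1 to 3 do not each correlate best with those of the same-numbered wild-type array, which does not settle whether the numbers pair the samples. The cause of these changes was not tested. Readings under the bacterial controls, including AT5G08520 in sto2, AT5G08480 and AT5G08600, have no level of their own.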
